A study of Mus musculus with 40 samples.

Results

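The primitive endoderm (PrE) and the trophectoderm (TE) are the extraembryonic lineages of the mouse blastocyst, and the RNA of their single cells is compared here. The comparison used the 13 cells of 3 E4.0 embryos that the study's sample sheet lists as PrE and the 3 cells of 3 E3.5 embryos that it lists as TE. These are 16 of the 40 cells and 6 of the 13 embryos of the series. The other 24 cells, from E3.5 inner cell masses (ICM) and from the E4.0 epiblast (Epi), served as a point of comparison. Classes had been set by the study from the stage and from a set of lineage factors that held Gata4, Gata6 and Nanog, so differences in such factors are not independent of the class.

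TE forms the outer wall of the blastocyst and gives rise to the placenta. It is a polarised epithelium that is sealed by tight junctions, stiffened by keratin filaments, and pumps ions and water into the blastocoel. PrE arises inside the ICM, from cells in which FGF signalling favours Gata6 over Nanog, and then sorts to the cavity side as a second epithelium. It lays down basement membrane, takes up nutrients by endocytosis, and forms the yolk sac endoderm. Both lineages thus leave the pluripotent pool, by different routes, and both become epithelia.

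All cells came from female F1 embryos of C57BL/6J females mated with CAST/EiJ males. PrE cells were picked at E4.0 from embryos 14 (7 cells), 15 (2 cells) and 16 (4 cells), after immunosurgery that kills the outer TE and TrypLE dissociation of the ICM. TE cells were 1 cell each of embryos 2, 4 and 5 at E3.5, taken over from a previous study of the group, whose polyadenylated RNA had been amplified in the same way. How these TE cells were isolated is not given in the sources used here. Stage, series of origin and cells per embryo therefore differ along with the lineage, and between PrE and TE alone they cannot be told apart. ICM cells came from both series (3 earlier cells and 11 of this study), which allowed a fit with the series of origin as a term. In that fit ICM embryos 8 and 12, which held cells of both series, were split by series. ICM then gave 3 earlier and 6 later sums, each taken as a replicate.

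Counts were summed per embryo and class, and the embryo was the replicate. All 15 sums of the 4 classes shared 1 fit, and p-values rest on the spread between these sums. Each TE sum is 1 cell, so spread between cells and between embryos cannot be told apart in TE. The PrE sums held 47464255, 20950731 and 37144427 counts for embryos 14, 15 and 16, against 5462656, 8097555 and 5687876 for TE embryos 2, 4 and 5. Single PrE cells held 1019112 to 12689903 counts (median 9257743) with 6245 to 11459 genes detected, and TE cells 8728 to 10132 genes. After thinning of every cell to 1000000 counts, PrE cells showed 5997 to 8672 genes (median 7804) and TE cells 6465 to 8319 (median 7057). Levels below are counts per 1000000 (CPM) on library sizes scaled by TMM, and are listed in the order of embryos 14, 15 and 16 for PrE and 2, 4 and 5 for TE. Where lengths matter, the RPRT of the authors is used, a read density per length of transcript.

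Both lineages carried their defining markers. Gata4, a zinc finger transcription factor of endoderm (chr14:63198922-63271692, GRCm38), had 499, 496 and 489 CPM in PrE, against 0, 24.4 and 2.09 CPM in TE. Sox7, an SRY-box factor that follows Gata4 in PrE (chr14:63943673-63950732), had 162, 150 and 71.6 CPM in PrE, against 0.20, 0 and 0.598 CPM in TE. The lowest PrE embryo lay above the highest TE embryo for both genes.

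Cdx2, the caudal homeobox factor of TE (chr5:147300805-147307270), had 0, 0 and 0.0546 CPM in PrE, against 84.5, 52.1 and 244 CPM in TE. Krt18, a type I keratin (chr15:102028180-102032027), had 8.15, 0.289 and 0.355 CPM in PrE, against 7570, 13410 and 14360 CPM in TE. Per cell, Gata4 was above RPRT 4, the study's limit for a well expressed gene, in 13 of 13 PrE cells and in 1 of 3 TE cells, that of embryo 4 with an RPRT of 19.2. Cdx2 passed it in 0 of 13 PrE cells and in 3 of 3 TE cells.

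1 PrE cell stood apart. This cell of embryo 15 had a Gata4 RPRT of 166, but a Sox7 RPRT of 0.385 against 7.39 to 94.6 in the other 12 PrE cells. Its RPRT for Pdgfra, the PDGF receptor of PrE, was 3.27, and 0.902 for Cubn, an endocytic receptor. It showed the fewest genes after thinning (5997) and the largest share of counts in its top 100 genes (53.9%), among PrE cells. Counts without it are given beside the main ones.

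**Figure D1:**
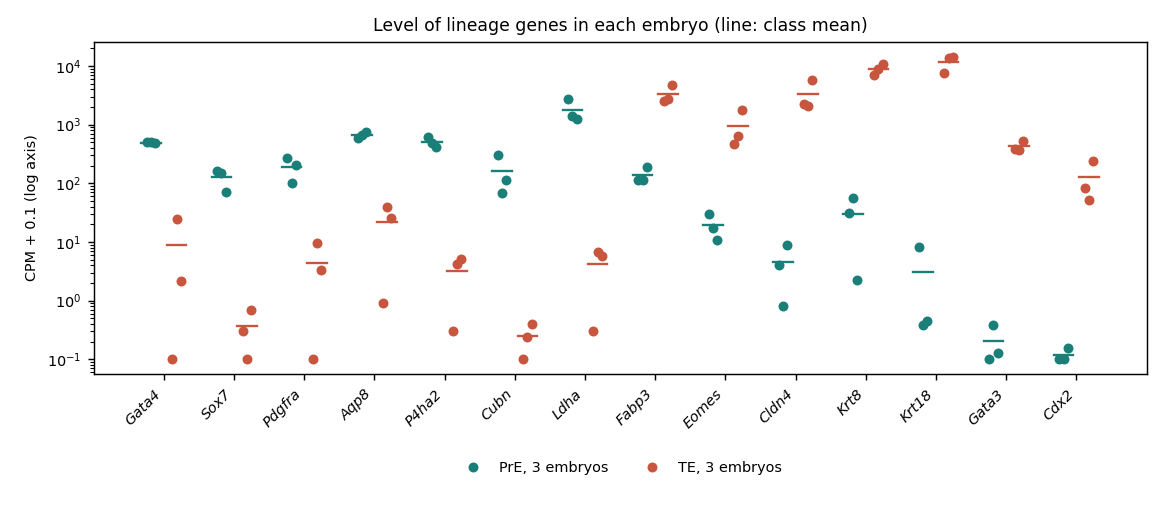
Level of 14 lineage genes in each PrE embryo (left of each pair) and TE embryo (right), as CPM + 0.1 on a log axis, with lines at class means. Gata4 sat between 489 and 499 CPM in the 3 PrE embryos and at or below 24.4 CPM in the 3 TE embryos, and Krt18 at or below 8.15 CPM in PrE and at or above 7570 CPM in TE.

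Calls between PrE and TE were few at this number of embryos. Of 12167 autosomal genes tested, 179 were higher in PrE (1.47%) and 99 were lower in PrE (0.814%) at an adjusted p under 0.05 in edgeR's quasi-likelihood test, together 278 genes (2.28%). At an unadjusted p under 0.05 the counts were 1790 higher and 985 lower. Counts within the gene lists below are to be read beside these shares of all genes. The 3 PrE embryos lay wholly above the 3 TE embryos for 2193 genes (18%) and wholly below them for 704 genes (5.79%). All 179 genes called higher and 98 of the 99 called lower were among these.

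Precision was low. The median width of the 95% interval of a log2 fold change was 7.26, and for only 201 genes did that interval lie within 1 log2 unit on either side of 0. Genes without a call can thus differ by a large factor. The median log2 fold change of PrE over TE over all tested genes was 0.50, and 0.11 when genes with 0 counts in 1 class were put at their bound. It was -0.23 with the size factors of DESeq2, and that tool called 1049 genes higher and 1379 lower.

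The counts were lowest with the series of origin as a term. There, 8 genes stayed higher in PrE and 8 stayed lower, all of them among the main calls, and of the 44 genes named by rule that were called, 3 kept the call, Ldha, Cldn4 and F11r. The other 41 lost it, with adjusted p of, for example, 0.0502 for Lcp1, 0.067 for Orc1, 0.0886 for Tspan8, 0.0892 for Sqle, 0.118 for Etv5, 0.131 for Cubn, 0.134 for Krt8, 0.155 for Aqp8 and 0.194 for Fabp3. Without PrE embryo 14, 15 or 16 the counts were 63 higher and 20 lower, 81 and 36, and 34 and 20. Without TE embryo 2, 4 or 5 they were 168 and 191, 340 and 179, and 124 and 61. Of the 44 called named genes, 9 kept the call in each of these 6 fits. Those 9 were Ldha, Fn1, Esrrb, Dtnbp1 and Exoc2 among the higher genes, and Cldn4, F11r, Lcp1 and Rab17 among the lower. Without the PrE cell that stood apart, 174 genes were higher and 112 lower, and 39 of the 44 named calls held, those of Eomes, Cldn7, Orc1, H2-Eb1 and Fdxacb1 being lost.

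**Figure D2:**
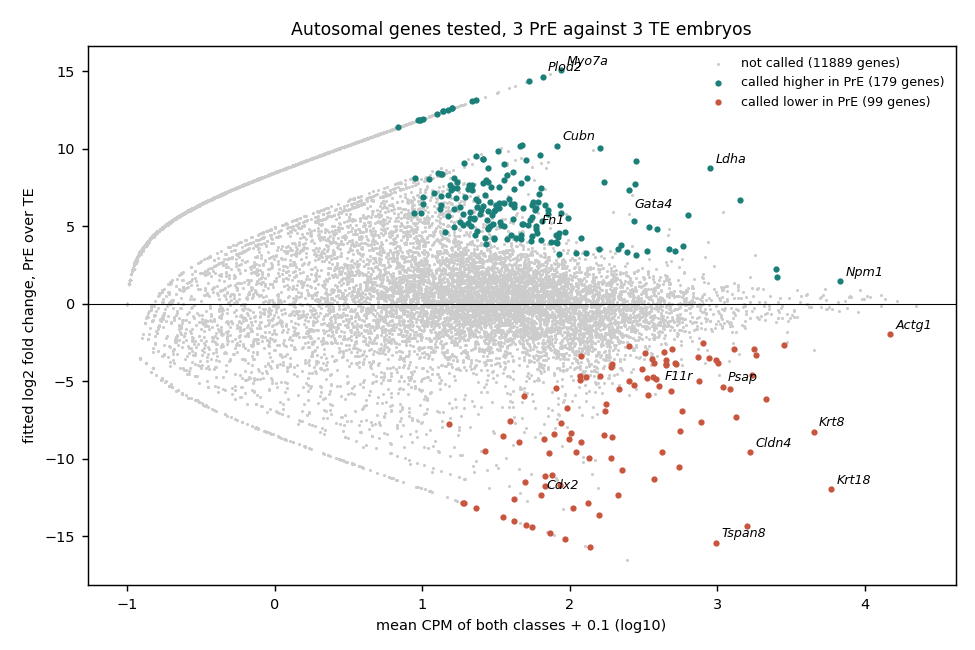
Fitted log2 fold change of PrE over TE against the mean CPM of both classes (log10 of CPM + 0.1) for 12167 autosomal genes, with the 179 genes called higher in teal and the 99 called lower in red. The curved bands at the upper and lower edge are genes with 0 counts in TE or in PrE, whose fitted values depend on the prior count and are no bound.

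The transcription factors of each lineage were described first. The PrE list (Gata4, Gata6, Sox7, Sox17, Hnf4a and others) had 8 genes tested, with a median log2 fold change of 6.88 (6.43 with bounds) beside 0.50 over all genes, but 0 calls. Of these, 4 had an unadjusted p under 0.05, and DESeq2 and limma-voom each called 4 higher. Gata4 had a log2 fold change of 5.79 ± 1.87 (SE) with an adjusted p of 0.0935 in edgeR. The list summed to 1115 to 1680 CPM in PrE embryos and to 16.5 to 196 CPM in TE embryos.

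Sox7 rested on 3 TE counts, so that its ratio of PrE over TE was 668 with a counting interval of 229 to 3240, and its adjusted p was 0.0922. Gata6, which acts upstream of Gata4 in PrE, was not low in each TE cell. It had 365, 782 and 399 CPM in PrE, against 152, 149 and 8.97 CPM in TE (adjusted p = 0.25 in edgeR). The groups did not overlap for these genes, and the spread among the TE cells of embryos 2, 4 and 5 was wide.

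The TE list of 16 tested factors had a median log2 fold change of -4.79, and 3 genes were lower in PrE and 0 higher. At an unadjusted p under 0.05, 9 were lower and 0 higher, but not all members fell. Tead4, on the same list, had a median RPRT of 13.9 in PrE and 0.956 in TE. It passed RPRT 4 in 11 of 13 PrE cells and in 1 of 3 TE cells. Hand1 and Arid3a had an RPRT of 0 in each TE cell. Gata3, a factor that acts beside Cdx2 in TE, fell to 0, 0.289 and 0.0273 CPM in PrE, against 380, 369 and 528 CPM in TE (log2 fold change -12.30 ± 2.59, adjusted p = 0.0201 in edgeR). Cdx2 rested on 2 PrE counts, both in embryo 16, and its ratio of TE over PrE was 5500 with a counting interval of 1520 to 45400 (adjusted p = 0.0206 in edgeR). Eomes, the T-box factor of trophoblast stem cells, was present in both classes.

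Eomes had 29.7, 17.5 and 10.7 CPM in PrE, against 458, 628 and 1751 CPM in TE (log2 fold change -5.62 ± 1.46, adjusted p = 0.0448 in edgeR). It passed RPRT 4 in 9 of 13 PrE cells and in 3 of 3 TE cells. Id2, a helix-loop-helix inhibitor, had 0.0539, 0 and 0.109 CPM in PrE, against 128, 57.02 and 295 CPM in TE, with an adjusted p of 0.0632. The calls of Cdx2, Gata3 and Eomes were lost with the series of origin as a term, where Cdx2 had an adjusted p of 0.146 and Gata3 of 0.0953. Leaving out 1 embryo moved the adjusted p of Cdx2 between 0.0207 and 0.0827, and it kept its call without TE embryo 2 or 4 only.

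Calls among basement membrane and collagen processing genes all pointed to PrE. Of 16 tested, 5 rose and 0 fell, beside 1.47% called higher over all genes. An unadjusted p under 0.05 was reached by 12, all upward, beside 1790 upward of all 12167 genes. The median log2 fold change was 4.62. The list summed to 11660 to 16130 CPM in PrE embryos, against 459 to 1767 CPM in TE embryos. With the series of origin as a term none of the named members kept its call.

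Sparc, a secreted glycoprotein that binds collagen IV, had 2771, 2980 and 2716 CPM in PrE, against 0.20, 42.9 and 38.3 CPM in TE (log2 fold change 6.70 ± 1.63, adjusted p = 0.0338 in edgeR). The 3 PrE embryos were close to each other, and the TE cell of embryo 2 held almost none. Fn1, fibronectin, had 64.3, 128 and 151 CPM in PrE, against 0.409, 6.58 and 5.38 CPM in TE (log2 fold change 4.79 ± 0.95, adjusted p = 0.017 in edgeR).

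The other called members were enzymes that modify collagen chains. P4ha2, a catalytic subunit of prolyl 4-hydroxylase, had 612, 490 and 409 CPM in PrE, against 0.20, 4.11 and 5.08 CPM in TE (log2 fold change 7.33 ± 1.56, adjusted p = 0.0201 in edgeR). Its paralog P4ha1 had 182, 58.7 and 271 CPM in PrE, against 6.34, 0.548 and 1.79 CPM in TE (adjusted p = 0.029 in edgeR). Plod2, a lysyl hydroxylase, had 175, 13.2 and 204 CPM in PrE and 0 counts in the 3 TE cells (adjusted p = 0.019 in edgeR). By its class mean it was at least 204-fold higher against a floor of 3 counts per library. Every such bound below uses the mean of the class with counts, so a single embryo can give a smaller factor.

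The chains of the basement membrane themselves missed the threshold, and they did not all point to PrE. Lama1, the laminin alpha 1 chain, had 2925, 1609 and 1966 CPM in PrE, against 0.409, 91.8 and 15.9 CPM in TE (adjusted p = 0.0645 in edgeR). Its partner Lamb1 had 3979, 3050 and 2664 CPM in PrE, against 116, 110 and 872 CPM in TE (adjusted p = 0.062 in edgeR). Col4a2, a collagen IV chain, had 1057, 1072 and 617 CPM in PrE, against 0.409, 75.7 and 21.2 CPM in TE (adjusted p = 0.054 in edgeR). For Lama1, Lamb1 and Col4a2 the embryos did not overlap. Lama5, a further laminin alpha chain of the list, went the other way, with a median RPRT of 11.7 in PrE and 65.2 in TE. Nid2, a nidogen, had similar medians, 6.33 in PrE and 7.15 in TE.

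Endoderm surface and uptake genes were mixed. Among 9 tested PrE surface and signalling genes, 2 were higher and 0 lower, with a median log2 fold change of 5.89 (5.48 with bounds). Fgfr3, an FGF receptor, had 24.4, 13.3 and 91.6 CPM in PrE and 0 counts in TE, at least 67.3-fold higher (adjusted p = 0.0338 in edgeR), and lost its call whichever of the 6 embryos was left out. Aqp8, a water channel, had 586, 654 and 759 CPM in PrE, against 0.818, 38.7 and 25.7 CPM in TE (log2 fold change 4.94 ± 1.24, adjusted p = 0.0397 in edgeR). Pdgfra had 270, 101.4 and 205 CPM in PrE, against 0, 9.46 and 3.29 CPM in TE (adjusted p = 0.0805 in edgeR), and Cd9, a tetraspanin, had 447, 562 and 599 CPM in PrE, against 2555, 1021 and 1246 CPM in TE (adjusted p = 0.0897).

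Of 10 endocytic receptors and adaptors 1 was higher and 0 lower, and the median log2 fold change was 0.26 (-0.55 with bounds), near that of all genes. The called gene was Cubn, cubilin, with 306, 68.7 and 114 CPM in PrE, against 0, 0.137 and 0.299 CPM in TE. Its ratio rested on 2 TE counts and was 1620, with a counting interval of 449 to 13400 (adjusted p = 0.0329 in edgeR). Lrp2, megalin, which forms a receptor complex with cubilin, did not follow it and had 121, 14 and 20.7 CPM in PrE, against 322, 127 and 42.2 CPM in TE (adjusted p = 0.591). Dab2, their endocytic adaptor, had 1571, 89.97 and 148 CPM in PrE, against 321, 250 and 42.5 CPM in TE (adjusted p = 0.519).

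Secreted and lipid transport genes of the later visceral endoderm were mostly below the filter, since 3 of 12 were tested. None of the 3 was called in edgeR, 1 higher and 1 lower had an unadjusted p under 0.05, and DESeq2 called 1 lower and limma-voom 0, with a median of 1.80. Cst3, a secreted protease inhibitor, had 321, 254 and 182 CPM in PrE, against 161, 43.9 and 12.6 CPM in TE, and Apoe, an apolipoprotein, had 6.70, 20.7 and 9.04 CPM in PrE, against 1.02, 4.11 and 1.495 CPM in TE. Apoa1 went the other way, with 0, 0.0722 and 0.0273 CPM in PrE, against 15.3, 0 and 1.20 CPM in TE.

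Calls among keratin and junction genes of the outer epithelium all pointed to TE, beside 0.814% called lower in PrE over all genes. Of 11 keratin and desmosome genes, 2 fell and 0 rose, 8 had an unadjusted p under 0.05 downward and 1 upward, and the median log2 fold change was -7.59 (-5.95 with bounds). The list summed to 172 to 225 CPM in PrE embryos, against 15090 to 25520 CPM in TE embryos. Krt18 had a log2 fold change of -11.95 ± 2.49 (adjusted p = 0.019 in edgeR), and lost its call without PrE embryo 15 or 16 (highest adjusted p = 0.0691) and with the series of origin as a term (0.0953).

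Krt8, the type II partner of Krt18 (chr15:101996698-102004482), had 30.9, 55.2 and 2.16 CPM in PrE, against 7113, 8853 and 10970 CPM in TE (log2 fold change -8.26 ± 1.63, adjusted p = 0.017 in edgeR). Per cell, Krt8 passed RPRT 4 in 7 of 13 PrE cells with a median of 7.71, against 3522 to 4481 in the 3 TE cells, and Krt18 in 3 of 13 PrE cells. Low RPRT values and counts did not always match, since 1 PrE cell of embryo 16 had 1 count of Krt18 and an RPRT of 5.96. Vim, the intermediate filament protein vimentin, ran the other way without a call, with 181, 91.99 and 152 CPM in PrE, against 0, 0 and 0.897 CPM in TE (adjusted p = 0.112).

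Of 13 junction genes 3 fell and 0 rose, and the median log2 fold change was -3.57. An unadjusted p under 0.05 was reached by 9, all downward, beside 985 downward of all 12167 genes. Cldn4, a tight junction claudin, had 3.88, 0.722 and 8.63 CPM in PrE, against 2207, 2054 and 5776 CPM in TE (log2 fold change -9.56 ± 1.38, adjusted p = 0.00238 in edgeR). F11r, the junction adhesion molecule JAM-A, had 21.6, 16.2 and 23.1 CPM in PrE, against 960, 202 and 1201 CPM in TE (log2 fold change -5.28 ± 0.77, adjusted p = 0.00238 in edgeR). These were the junction genes whose calls held with the series of origin as a term, with log2 fold changes of -8.43 and -5.06 and adjusted p of 0.0409 and 0.0378.

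Cldn7, a further claudin (chr11:69964779-69967885), had 12.8, 26.9 and 6.01 CPM in PrE, against 758, 370 and 332 CPM in TE (log2 fold change -5.00 ± 1.27, adjusted p = 0.0414 in edgeR). Cdh1, E-cadherin, was well expressed in both lineages, at 162, 259 and 310 CPM in PrE, against 922, 527 and 884 CPM in TE (adjusted p = 0.165). Cgn, cingulin, had 5.26, 0.289 and 0.355 CPM in PrE, against 109, 60.7 and 101.1 CPM in TE (adjusted p = 0.0725).

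Ion and water transport genes of the blastocoel gave 0 calls among 9 tested in edgeR. Of these, 2 had an unadjusted p under 0.05 downward, DESeq2 called 4 lower and limma-voom called 0, and the median log2 fold change was -1.58 (-1.83 with bounds). Slc2a1, a glucose transporter, overlapped between the groups, with 92.6, 34.8 and 22.8 CPM in PrE, against 38.9, 0.411 and 647 CPM in TE.

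The list of TE enzymes and surface proteins gave 6 lower and 1 higher of 12 tested, with a median log2 fold change of -5.73. With any 1 PrE embryo left out, 1 of the 12 was lower, and with the series of origin as a term 0 were called. Lcp1, the actin bundling protein L-plastin, had 0.018, 0.144 and 0.71 CPM in PrE, against 1093, 326 and 824 CPM in TE (log2 fold change -11.28 ± 1.98, adjusted p = 0.00842 in edgeR). Tspan8, a tetraspanin, had 0.0359, 0.0722 and 0.0273 CPM in PrE, against 2167, 880 and 2820 CPM in TE (log2 fold change -15.41 ± 3.03, adjusted p = 0.0174 in edgeR). Dppa1 had 0 counts in PrE, against 245, 195 and 121 CPM in TE, and was at least 1590-fold lower (adjusted p = 0.019 in edgeR).

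The fatty acid binding proteins went opposite ways. Fabp3 fell to 115, 114 and 186 CPM in PrE, against 2499, 2721 and 4645 CPM in TE (log2 fold change -4.57 ± 0.96, adjusted p = 0.019 in edgeR). Fabp5, on the TE list, rose to 170, 1462 and 207 CPM in PrE, against 25.2, 112 and 40.7 CPM in TE (log2 fold change 3.37 ± 0.81, adjusted p = 0.0326 in edgeR). PrE embryo 15 was the highest, and the call was lost without this embryo, without its cell that stood apart, without TE embryo 2 or 5, with limma-voom, with PrE and TE sums alone, with 1 cell per embryo and with the series of origin as a term. Lgals1 and S100a11, a galectin and a calcium-binding protein, were the other members called lower, at 200, 2003 and 347 CPM and at 341, 553 and 134 CPM in TE, each at or below 5.11 CPM in the PrE embryos.

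**Figure D3:**
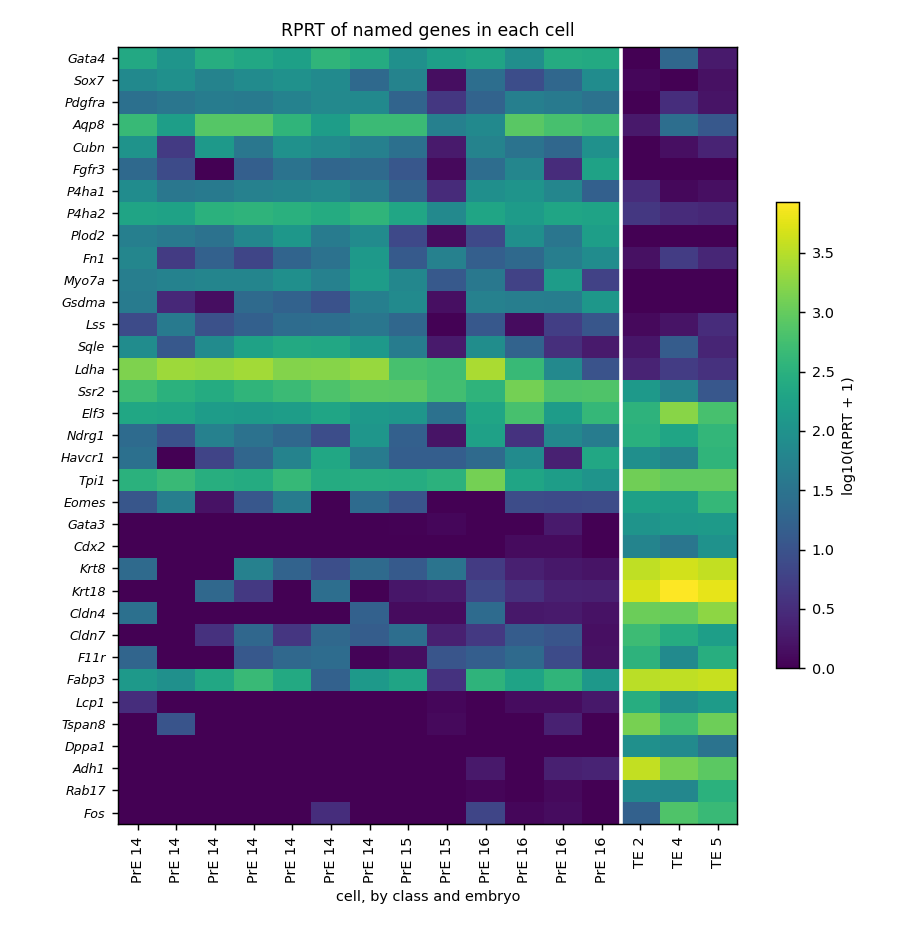
RPRT of 35 named genes as log10(RPRT + 1) in each of the 13 PrE cells (left, by embryo) and 3 TE cells (right). Gata4 and Ldha were above RPRT 4 in 13 of 13 PrE cells, Cdx2 in 0 of 13 PrE cells and 3 of 3 TE cells, and the second PrE cell of embryo 15 was dark for Sox7, Cubn, Fgfr3 and Plod2.

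Among the 10 largest rises and 10 largest falls by fitted value, most had 0 counts in the lower class. The rises all had 0 counts in the 3 TE cells, and were led by Myo7a, an unconventional myosin, with 217, 195 and 115 CPM in PrE, at least 274-fold higher (adjusted p = 0.0366 in edgeR). Next to Plod2 and Fgfr3 stood Gsdma, a gasdermin, at least 166-fold higher, and Dtnbp1, the BLOC-1 subunit dysbindin, at least 71.8-fold higher. Exoc2, a subunit of the exocyst, H2-Eb1, an MHC class II chain, and Stk3, a Hippo kinase, were at least 43.2-fold to 49.5-fold higher. So were Fdxacb1 and Tmem126b, a complex I assembly factor. Some rises were also found in ICM and Epi. Exoc2 averaged 31.6 CPM in PrE, 13.1 in ICM and 29.7 in Epi embryos, and H2-Eb1 29.9, 11.2 and 24.1 CPM. In the same order, Stk3 averaged 27.7, 16.4 and 16.4 CPM, and Dtnbp1 46.01, 17.7 and 26.6 CPM. Fdxacb1 and Tmem126b averaged 27.65 to 31.7 CPM in PrE, against 4.17 to 13.9 CPM. Myo7a, Plod2, Gsdma and Fgfr3 averaged 43.1 to 175.6 CPM in PrE, against 1.42 to 18.2 CPM. PrE was not tested against ICM or Epi alone.

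The falls were led by Epha10, an Eph receptor, with 0 counts in PrE, against 84.3, 20.6 and 719 CPM in TE (at least 2340-fold lower, adjusted p = 0.024 in edgeR). Cdx1, a paralog of Cdx2, had 0 counts in PrE, against 85.7, 23.3 and 196 CPM in TE (at least 866-fold lower, adjusted p = 0.0318 in edgeR). Adh1, an alcohol dehydrogenase, had 0, 0 and 0.41 CPM in PrE, against 5650, 1874 and 1964 CPM in TE (log2 fold change -14.35 ± 3.38, adjusted p = 0.0313 in edgeR).

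Rab17, a small GTPase of polarised epithelial traffic, rested on 2 PrE counts, and its ratio of TE over PrE was 13000 with a counting interval of 3600 to 107000 (adjusted p = 0.00842 in edgeR). Tmprss2, a membrane serine protease, and Fxyd6, a small membrane protein, were at least 950-fold and 1250-fold lower. Ly6f and Kbtbd13 were at least 708-fold and 602-fold lower, with 0 counts in PrE. Kbtbd13 was uneven among TE cells, at 194, 17.3 and 1.495 CPM, so its bound rested mostly on the cell of embryo 2. Of all genes called higher, 16 had 0 counts in TE, and of those called lower, 10 had 0 counts in PrE.

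Promoters of called genes were read for 4 short motifs, since factors of the GATA, TEAD, AP-2 and SNAI or ZEB families act on endoderm or epithelial genes. RefSeq windows of 300 bases (GRCm38.p6) were matched by symbol for 138 of the 179 genes called higher, 85 of the 99 called lower and 9289 of all 12167, and both strands were searched. The GATA letters AGATAA (or TTATCT) were in 6.5% of the higher, 11.8% of the lower and 6.2% of all promoters. The TEAD letters GGAATG (or CATTCC) were in 7.2%, 15.3% and 11.9% of these sets, and the AP-2 letters GCCNNNGGC in 28.3%, 31.8% and 25.2%. The E-box CAGGTG (or CACCTG) was in 13.8% of the higher, 31.8% of the lower and 18.2% of all promoters. A match is no evidence of binding. Among the called genes read for positions, the GATA letters occurred at H2-Eb1, higher in PrE, and at Krt8, Dppa1 and Adh1, lower in PrE, and the TEAD letters at Aqp8, higher in PrE, and at Cldn7 and Tmprss2, lower in PrE. A site of each motif in each direction is shown 5′ to 3′ on the strand of the gene, with the match in capitals. Match positions are counted from the RefSeq start of the window, which for Krt8 lies inside the gene coordinates given above.
Krt8 (chr15:102004563-102004592, - strand, match from base -239): aggagggcaggAGATAAgacagcttaggtc
H2-Eb1 (chr17:34305858-34305887, + strand, match from base 3): ccctgtctcttaTTATCTtagcaatgagta
Cldn7 (chr11:69964697-69964726, + strand, match from base -70): aacctggggaggGGAATGttgggcgtgtcg
Aqp8 (chr7:123462061-123462090, + strand, match from base -221): cacgaggatggtGGAATGtcaatggtagcg

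Signalling lists held few calls, and 1.47% of all genes were called higher. Of 19 Hippo pathway genes, which sort inner from outer cells by keeping YAP out of the nucleus, 1 was higher and 0 lower, with a median log2 fold change of 1.1 (0.99 with bounds). The called gene was Stk3, with 57.8, 7.43 and 17.8 CPM in PrE and 0 counts in TE (adjusted p = 0.0188 in edgeR). Its scaffold partner Sav1 had 17.4, 0.433 and 24.8 CPM in PrE, against 0, 0 and 0.299 CPM in TE, with an adjusted p of 0.0943.

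Of 18 FGF and ERK pathway genes 2 were higher and 0 lower, with a median log2 fold change of 1.23 (1.02 with bounds). Etv5, an ETS factor induced by ERK, had 36.5, 69.2 and 70.04 CPM in PrE, against 0.20, 0.274 and 4.78 CPM in TE (log2 fold change 5.15 ± 1.14, adjusted p = 0.024 in edgeR). Spred1, an inhibitor of the pathway, had 41.6, 3.39 and 29.9 CPM in PrE and 0 counts in TE, at least 39-fold higher (adjusted p = 0.0469 in edgeR). Spry4, a further inhibitor, had 19.8, 2.17 and 9.92 CPM in PrE, against 0, 1.1 and 0 CPM in TE (adjusted p = 0.138). Not all members pointed to PrE. Dusp6 had a median RPRT of 0 in PrE and 14.5 in TE, and Fgfr1 of 6.57 in PrE and 33.2 in TE. DESeq2 called 4 of the list higher and 1 lower.

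Epiblast and pluripotency genes gave 1 higher and 0 lower of 16, with a median log2 fold change of 1.38. DESeq2 called 2 higher and 1 lower, and limma-voom called 1 in each direction. Esrrb, an orphan nuclear receptor of naive pluripotency, had 63.3, 126 and 54.2 CPM in PrE, against 0.409, 0.548 and 4.78 CPM in TE (log2 fold change 5.47 ± 0.997, adjusted p = 0.0106 in edgeR). Nanog had 7.42, 95.7 and 18.2 CPM in PrE, against 8.18, 25.8 and 14.4 CPM in TE, and Sox2 had 1.20, 18.3 and 11.7 CPM in PrE, against 0.614, 0.137 and 22.1 CPM in TE. Both pluripotency factors overlapped between the lineages. Pou5f1, Oct4, was highest in PrE embryo 15, with 391, 1513 and 421 CPM in PrE, against 290, 109 and 19.7 CPM in TE (adjusted p = 0.0922).

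Metabolic and secretory genes were next, to be read beside the 1.47% of all genes called higher. Of 13 glycolysis genes 1 was higher and 0 lower, with a median log2 fold change of 0.88. Ldha, the A chain of lactate dehydrogenase, had 2730, 1402 and 1229 CPM in PrE, against 0.20, 6.58 and 5.68 CPM in TE (log2 fold change 8.75 ± 1.69, adjusted p = 0.0146 in edgeR). It was above RPRT 4 in 13 of 13 PrE cells and 0 of 3 TE cells, its adjusted p stayed between 0.0278 and 0.0429 with any of the 6 embryos left out, and it was 0.0378 with the series of origin as a term. ICM embryos averaged 144 CPM and Epi embryos 814 CPM of Ldha. Pgam1 and Tpi1, enzymes upstream of it, missed the threshold in opposite directions, with adjusted p of 0.0583 and 0.128.

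Cholesterol synthesis gave 2 higher and 0 lower of 16, with a median log2 fold change of 2.62. Lss, lanosterol synthase, had 125, 91.3 and 34.6 CPM in PrE, against 1.02, 0.137 and 0.299 CPM in TE (log2 fold change 7.43 ± 1.66, adjusted p = 0.0244 in edgeR). Sqle, squalene epoxidase, the step before it, had 407, 102 and 61.3 CPM in PrE, against 0.614, 9.59 and 2.09 CPM in TE (log2 fold change 5.52 ± 1.39, adjusted p = 0.0397 in edgeR). Embryo 14 was the highest of the PrE embryos for both.

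Folding and secretion genes of the endoplasmic reticulum gave 1 higher and 0 lower of 19, with a median log2 fold change of 1.70, and summed to 7726 to 12010 CPM in PrE embryos, against 2053 to 5341 CPM in TE embryos. Ssr2, a subunit of the translocon-associated complex, had 607, 1317 and 915 CPM in PrE, against 180, 74.8 and 17.6 CPM in TE (log2 fold change 3.38 ± 0.78, adjusted p = 0.0279 in edgeR). DNA replication licensing gave 1 higher and 0 lower of 12, with a median of 1.5. The called gene was Orc1, the largest subunit of the origin recognition complex, with 36.5, 9.67 and 95.4 CPM in PrE, against 0.20, 0.137 and 1.20 CPM in TE (adjusted p = 0.0268 in edgeR).

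Imprinted growth genes gave 0 calls among 12 tested in edgeR, with 0 at an unadjusted p under 0.05, and DESeq2 called 1 lower and limma-voom 0. Their median log2 fold change was 2.33 (0.84 with bounds) and lay at -0.01 with limma-voom. H19, a noncoding RNA expressed from the maternal allele, was at 132 CPM in PrE embryo 14 alone, with 0 and 1.12 CPM in embryos 15 and 16, against 0, 0.274 and 1.79 CPM in TE. Oocyte-stored transcripts gave 0 calls among 7 tested, 1 higher at an unadjusted p under 0.05 in edgeR, and DESeq2 called 1 lower and limma-voom 0, with a median of -0.17 (-0.57 with bounds). Dppa3, a maternal factor also made in pluripotent cells, had 82.3, 1087 and 598 CPM in PrE, against 1327, 1318 and 2106 CPM in TE (adjusted p = 0.251).

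Stress and immediate early genes moved with the class in part. For their counts, 1790 of all 12167 genes were higher and 985 lower at an unadjusted p under 0.05. Of 12 tested, 1 was lower and 0 higher, with 3 at an unadjusted p under 0.05 in each direction and a median log2 fold change of 1.80 (-0.04 with bounds), and the list summed to 73.6 to 236 CPM in PrE embryos, against 74.03 to 2356 CPM in TE embryos. Fos, an immediate early transcription factor, had 0.305, 0 and 1.86 CPM in PrE, against 27.8, 1642 and 1643 CPM in TE (log2 fold change -10.53 ± 2.65, adjusted p = 0.0407 in edgeR). Jun, the partner of Fos, was at most 0.0273 CPM in PrE embryos, against 0.409, 227 and 3.89 CPM in TE. Ier2, a further immediate early gene, had 3.56, 5.20 and 3.01 CPM in PrE, against 1.84, 361 and 17.6 CPM in TE. The TE cell of embryo 4 was the highest for both. The part of this response in the other TE differences was not tested.

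**Figure D4:**
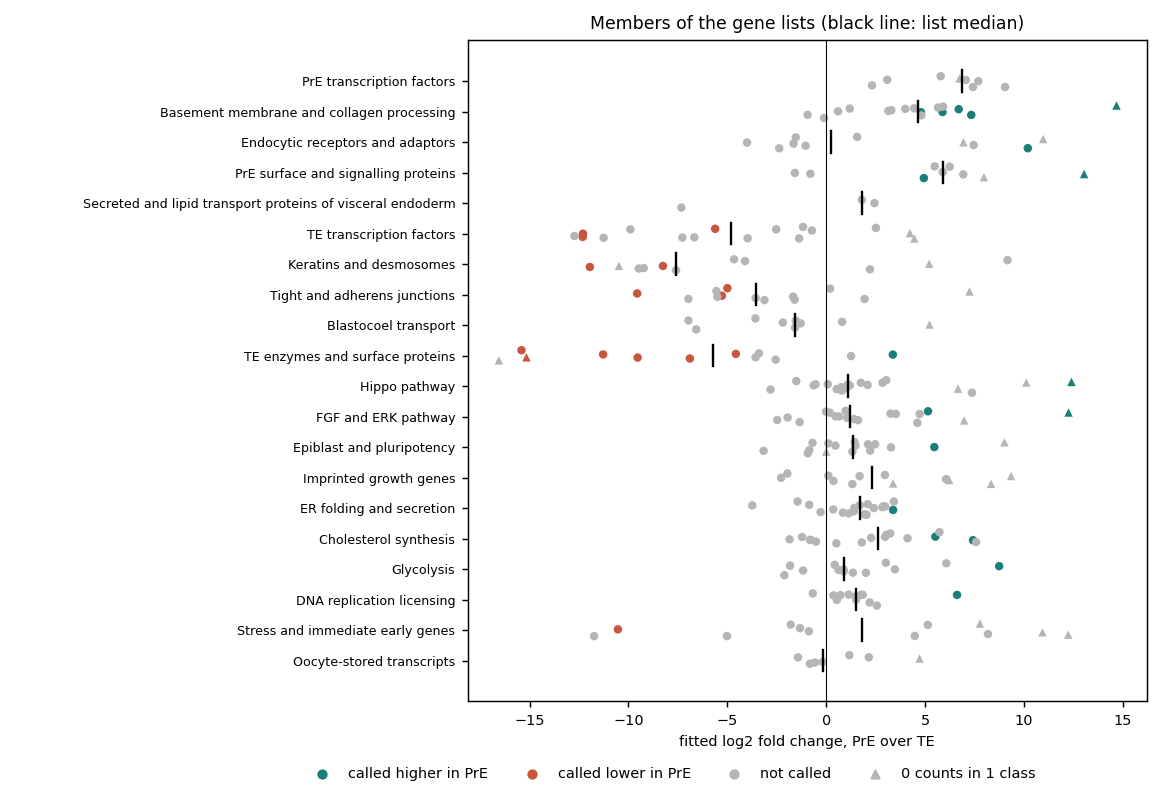
Fitted log2 fold change of PrE over TE for each tested member of the 20 gene lists, with black lines at list medians, teal for genes called higher in PrE, red for genes called lower, grey for the rest and triangles for genes with 0 counts in 1 class. Most basement membrane genes lie to the right (median 4.62, 5 called) and most keratin genes to the left (median -7.59, 2 called).

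What the lineages shared was measured first by presence. With RPRT above 4 in every embryo mean, 4611 of 16603 autosomal genes were well expressed in PrE and 2262 in TE, and 1884 were well expressed in both. These are 40.9% of the PrE genes and 83.3% of the TE genes. A TE mean is 1 cell and a PrE mean 2 to 7 cells. With every cell above the limit, 1723 genes passed in PrE and 2262 in TE, and the 1217 in both were 70.6% of the PrE genes and 53.8% of the TE genes. The share that is larger thus changed sides with the rule. The log2 CPM of the 3 PrE embryos correlated at 0.814 to 0.866 over tested genes, the 3 TE embryos at 0.625 to 0.711, and PrE with TE embryos at 0.577 to 0.68, which is a description across genes.

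Only 7 autosomal genes were above RPRT 4 in each PrE and TE embryo mean and below RPRT 1 in both Epi embryo means. These were Anxa2, Havcr1, Fam213a, Lrp2, Gcnt1, Gng2 and Slc37a2. Anxa2, annexin A2, a membrane-binding protein, averaged an RPRT of 51.7 in PrE and 390 in TE, and Havcr1, a phosphatidylserine receptor, 49.2 in PrE and 173 in TE. Lrp2 averaged 15.2 in PrE and 34.4 in TE. Each of them was also found in ICM embryos, where Anxa2 averaged 48.0 and Lrp2 10.2.

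A single contrast then set the mean of PrE and TE against the mean of ICM and Epi. In it 11 genes were higher (0.0904%) and 24 lower (0.197%), and 2162 had an unadjusted p under 0.05. The classes lay on the same side by their means for 6 of the higher (0.0493%) and 20 of the lower (0.164%). The median log2 difference over all genes was -0.27, against 0.12 with DESeq2, which called 559 higher and 643 lower. With the series of origin as a term, 2 genes were higher and 5 lower, and of the 10 genes named by rule Tpi1 alone kept its call. The counts ran from 3 to 49 higher and from 5 to 95 lower when 1 PrE or TE embryo was left out, with the largest counts without TE embryo 4.

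Elf3, an ETS factor of epithelia, was among the 6. It had 266, 218 and 648 CPM in PrE and 770, 3750 and 2018 CPM in TE, against 2.63 to 613 CPM in ICM embryos and 2.61 to 5.11 CPM in Epi embryos (log2 difference 4.84 ± 0.89, adjusted p = 0.0254 in edgeR). It passed RPRT 4 in 13 of 13 PrE cells and 3 of 3 TE cells. Tpi1, a glycolytic isomerase, had 380, 659 and 624 CPM in PrE and 1933, 1607 and 2348 CPM in TE, against 70.9 to 372 CPM in ICM embryos and 31.6 to 150 CPM in Epi embryos (log2 difference 3.10 ± 0.52, adjusted p = 0.0112 in edgeR). Tpi1 was the named gene of this contrast that kept its call whichever of the 6 embryos was left out, and its adjusted p was 0.0258 with the series of origin as a term.

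Havcr1 had 122.6, 40.5 and 149 CPM in PrE and 185, 122 and 1231 CPM in TE, against 0.39 to 160 CPM in ICM embryos and at most 0.436 CPM in Epi embryos (log2 difference 5.85 ± 1.20, adjusted p = 0.0446 in edgeR). Ndrg1, a stress-responsive cytoplasmic protein, had 58.4, 26.1 and 181 CPM in PrE and 897, 617 and 1635 CPM in TE, against at most 94.0 CPM in ICM embryos and 4.46 CPM in Epi embryos (adjusted p = 0.0446 in edgeR). Dstn, the actin severing protein destrin, had 410, 418 and 521 CPM in PrE and 1269, 1079 and 1778 CPM in TE, against 137 to 430 CPM in ICM embryos and 154 to 213 CPM in Epi embryos (adjusted p = 0.0446 in edgeR). The sixth was Rhno1, a DNA damage response protein, with 48.2 to 232 CPM in PrE and 140 to 2247 CPM in TE. For each of these but Tpi1, PrE embryos overlapped ICM embryos.

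The falls named in this contrast had at most 10.9 CPM in any PrE or TE embryo. Fgf4, the ligand that epiblast cells send to PrE precursors, had 0.431, 0.289 and 1.18 CPM in PrE and 0 counts in TE, against 0 to 343 CPM in ICM embryos and 146 to 180 CPM in Epi embryos (log2 difference -11.03 ± 2.24, adjusted p = 0.0446 in edgeR). Apobec3, a cytidine deaminase, had 4.72, 5.63 and 10.9 CPM in PrE and 0 counts in TE, against 0.47 to 169 CPM in ICM embryos and 41.3 to 82.1 CPM in Epi embryos. Ankrd45 and Epb41l4a were the other named falls, with at most 0.246 CPM in any PrE or TE embryo, against 23.7 to 36.9 CPM and 1.96 to 51.3 CPM in Epi embryos.

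Further genes of this contrast are named after their values were seen, for their low p. Fn1 averaged 115 CPM in PrE and 4.12 CPM in TE, against 326 CPM in ICM and 1645 CPM in Epi embryos (log2 difference -5.07 ± 0.67, adjusted p = 0.0015 in edgeR), so that this matrix gene, higher in PrE than in TE, was highest in Epi. Esrrb averaged 81.1 CPM in PrE and 1.91 CPM in TE, against 212 CPM in ICM and 416 CPM in Epi embryos (adjusted p = 0.0037 in edgeR). Etv5 averaged 58.6 CPM in PrE and 1.75 CPM in TE, against 245 CPM in ICM and 559 CPM in Epi embryos (adjusted p = 0.00497 in edgeR). Bmp4, a TGF-beta family ligand, averaged 4.33 CPM in PrE and 1.63 CPM in TE, against 111 CPM in ICM and 326 CPM in Epi embryos (adjusted p = 0.0269 in edgeR). Fn1, Esrrb and Etv5 kept their calls with the series of origin as a term.

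**Figure D5:**
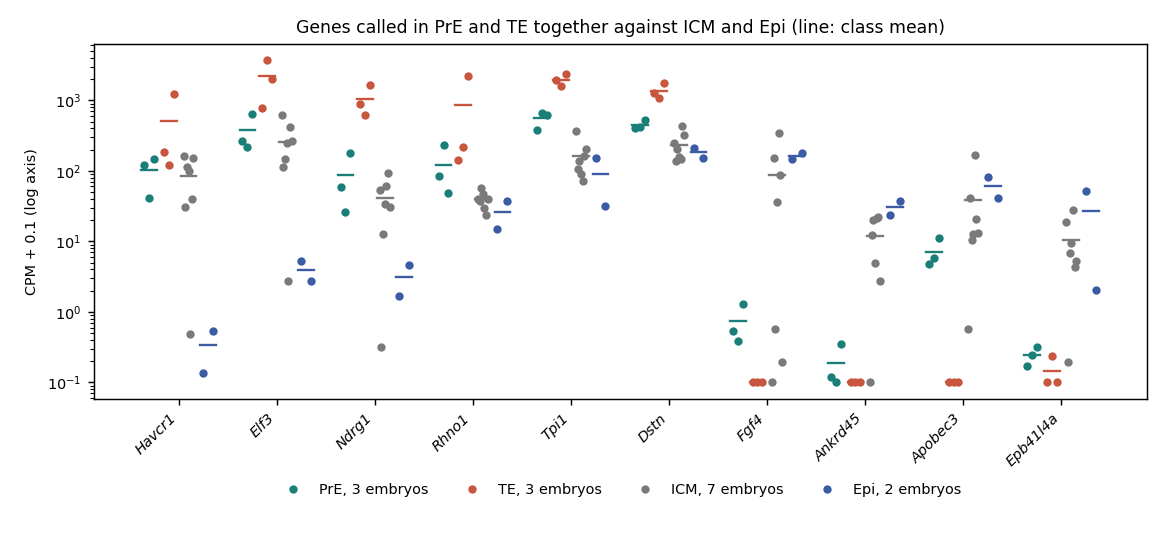
CPM + 0.1 (log axis) of the 10 genes named in the contrast of PrE and TE with ICM and Epi, for 3 PrE, 3 TE, 7 ICM and 2 Epi embryos from left to right, with lines at class means. Elf3 was at or above 218 CPM in each PrE and TE embryo and at most 5.11 CPM in Epi, and Fgf4 at most 1.18 CPM in PrE and TE and at least 146 CPM in Epi.

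Parental alleles were read from the paternal fraction that the authors gave for autosomal genes. A gene counted as biallelic between 0.15 and 0.85. Averaged over cells of an embryo, 57.5%, 47.4% and 46.6% of genes were biallelic in PrE embryos, against 43.6%, 52.8% and 21.6% in TE embryos. The groups overlapped, and the TE cell of embryo 5, with the fewest informative genes (2096), was the lowest. The means were 50.5% ± 6.04 in PrE and 39.3% ± 16.03 in TE (SD, n = 3 embryos each), a difference of 11.2 points (two-sided exact permutation test, p = 0.4, where 0.1 is the smallest p that 3 against 3 can give). No read numbers stand behind these fractions in the table, and their depth is unknown.

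Among lineage genes some were balanced between alleles and others were not. Krt18 had paternal fractions of 0.34 to 0.427 in the 3 TE cells, and Cldn4 of 0.459 to 0.555. In PrE cells Gata4 averaged 0.41 (0.16 to 0.659 over 13 cells) and P4ha2 0.509 (0.227 to 0.858 over 13 cells). Cdx2 ran from 0.051 to 1 and Gata3 from 0.122 to 0.519 over the 3 TE cells. Cubn averaged 0.213 over 11 PrE cells, Fxyd6 ran from 0.771 to 0.983 over the 3 TE cells, and Ly6f was at 1 in each of them.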

How the data were processed

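Single-cell RNA-seq of 40 mouse blastocyst cells was used. The authors made the deposited counts with TopHat2 2.1.0 and HTSeq 0.6.1 on mm10, without normalization. The deposited allelic ratio is a fraction, made by the authors as paternal over all allelic reads. RPRT is a signal that the authors normalised to retrotranscribed length and depth. Class and embryo of each cell came from the study's sample sheet. All 40 cells had a column in each table.

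Summing over cells gave 15 totals, 1 for each class in an embryo (5462656 to 71761691 counts). Each TE total is 1 cell, so for low genes in TE the limits of depth and of a single cell cannot be told apart. They were fitted together with edgeR 4.0.16 in R 4.3.3 (filterByExpr, TMM, quasi-likelihood test, two-sided, Benjamini-Hochberg over 12599 genes, threshold 0.05), and 12167 autosomal genes were reported. DESeq2 1.42.0 and limma 3.58.1 were alternatives, as were other scaling, filter, samples, cells, series of origin and leave-outs. Intervals of ratios on 1 to 3 counts are at 95% and cover counting error only. The SE of a log2 fold change or difference was back-calculated as its absolute value over the square root of the test's F statistic. The 95% intervals of log2 fold changes were built from this SE. The steps were tested on simulated data. Figures used matplotlib 3.10.9.

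Named were the 4 markers, the 10 largest called rises and falls, up to 4 members of each list by p, and of the shared contrast up to 8 largest rises (6 qualified) and 4 largest falls. Other members and genes were picked after their values were seen. Members, lists and rules were chosen with earlier results of these data known. The strand setting of the counting is not given in the sources used here, so overlapping genes cannot be told apart, and genes with near-identical copies (Krt8, Krt18, Ldha, Tpi1, Dstn, Actb and Actg1) are uncertain. Results of some genes are not reported here.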

Additional observations from a re-analysis of the deposited data

Results flagged for a closer look

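Apobec3 was at 168.8 CPM in 1 of the 7 ICM embryos, embryo 11, while the other 6 ranged from 0.47 to 40.5 CPM, which is a wider gap than Dixon's 95% limit for 7 samples allows. Chance marks about 1 in 20 groups in this way. PrE embryos (4.72 to 10.9 CPM) and TE embryos (0 counts) were below this embryo and below both Epi embryos (41.3 and 82.1 CPM).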

How the results depend on the processing

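With 3 embryos a class, counts of calls moved with the fit. For PrE over TE, 179 genes were higher and 99 lower, against 1049 and 1379 with DESeq2, 604 and 265 with limma-voom, 267 and 248 with the PrE and TE sums alone, 281 and 201 without the filter, 28 and 33 with 1 cell per embryo, and 8 and 8 with the series of origin as a term. Of the 179 higher genes, 176, 156 and 70 were called in the first 3 of these. Thinning of sums to 5462656 counts, added after the data were seen, gave 185 and 170. Leave-outs gave 34 to 340 higher and 20 to 191 lower. For PrE and TE over ICM and Epi, 11 were higher and 24 lower, against 559 and 643 (DESeq2), 89 and 180 (limma-voom), 73 and 93 (no filter), 9 and 77 (no TMM), 7 and 17 (cells scaled to the same total), 3 and 3 (1 cell per embryo), 17 and 27 (thinned) and 2 and 5 (series of origin). Leave-outs gave 3 to 49 and 5 to 95. For the changes between tools, filters and scalings the cause was not tested, and the fits with fewer cells or embryos rest on fewer samples.

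Embryo 4 held cells of TE and ICM, and embryo 14 of PrE and Epi. With embryo as a replicate block in limma-voom (correlation within blocks 0.187), 606 genes were higher and 270 lower for PrE over TE, and 107 and 211 in the shared contrast, close to limma-voom without the block. Of 44 called named genes 42 kept their call with it, and all 10 of the shared contrast.

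Genes above RPRT 4 in both classes numbered 1884, against 3591 above RPRT 1 and 1217 with every cell above the limit. Of 1827 values of named genes under alternatives, 1430 kept their side of the threshold and direction, 294 lost it, 97 gained it and 6 reversed, none of them of a called gene. Slc2a1 (main -2.19) was at 1.55 with limma-voom, 1.59 with the block, and leave-outs ranged from -3.13 to 1.3 (without TE embryo 5). H19 (main 6.06) ranged from -0.26 (without PrE embryo 14) to 8.16, and Ascl2 (main 6.22) at -0.50 with limma-voom and -0.33 with the block.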

Other observations

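Genes in this section were picked after their values were seen, from those called between PrE and TE. Lysosomal genes went in both directions. Psap, the precursor of the saposins, had 63.2, 51.4 and 41.8 CPM in PrE, against 2554, 1106 and 2712 CPM in TE (log2 fold change -5.35 ± 0.74, adjusted p = 0.00238 in edgeR). Gm2a, the GM2 activator, had 17.5, 5.56 and 5.11 CPM in PrE, against 793, 1037 and 1604 CPM in TE (adjusted p = 0.00238 in edgeR). The proteases Ctsb and Ctsz were higher in PrE. Ctsb had 493, 364 and 391 CPM in PrE, against 19.02, 60.3 and 10.8 CPM in TE (adjusted p = 0.0127 in edgeR), and Ctsz had 608, 154 and 255 CPM in PrE, against 1.43, 0.959 and 2.09 CPM in TE (adjusted p = 0.0189 in edgeR). Psap, Gm2a and Ctsb kept their calls with the series of origin as a term.

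Actin-linked genes were lower in PrE. Actn4, an actin crosslinker, had 142, 110 and 171 CPM in PrE, against 1270, 733 and 2838 CPM in TE (log2 fold change -3.52 ± 0.61, adjusted p = 0.00842 in edgeR), and Crb3, an apical polarity protein, had 0.216, 0.361 and 0.246 CPM in PrE, against 58.1, 169 and 585 CPM in TE (adjusted p = 0.0143 in edgeR). The metallothionein Mt1 had 2.51, 7.43 and 13.3 CPM in PrE, against 186, 3819 and 620 CPM in TE (adjusted p = 0.00842 in edgeR), and was highest in the TE cell of embryo 4, the one with high Jun. Ajuba, a LIM protein that binds LATS kinases, had 167, 127 and 73.3 CPM in PrE, against 0.614, 0.685 and 1.495 CPM in TE (log2 fold change 7.06 ± 1.14, adjusted p = 0.0068 in edgeR). Rrbp1, a ribosome-binding protein of the endoplasmic reticulum, had 595, 1046 and 638 CPM in PrE, against 34.6, 37.3 and 8.97 CPM in TE (log2 fold change 4.82 ± 0.84, adjusted p = 0.00842 in edgeR), and kept its call with the series of origin as a term.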
